A study of Mus musculus with 12 samples.

Results

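The genes described here are 35 genes of fatty acid uptake, activation and oxidation and of the control of these steps, in the left ventricle of adult mouse hearts. They were chosen by name, as the rows of the count tables whose transcript name without its final hyphen and number is one of the 35. The rule used no measured value, but the list was made with earlier results of these data known. All 35 were present, with 1 row each, among 21669 rows. Hearts of wild-type mice (WT) and of mice with the genotype Rpl3l-/- (KO), which lack the gene of a muscle paralog of the ribosomal protein encoded by *Rpl3*, were compared by ribosome profiling and by RNA sequencing. There were 4 groups of 3 libraries: footprints (ribosome-protected fragments, RPF) of WT, footprints of KO, RNA of WT and RNA of KO. Both genotypes were taken as adult hearts, with left ventricular tissue lysed in cycloheximide, and no treatment is named for either. Strain, age, sex and the way the *Rpl3l* allele was made are not given in the sources used here, and the series' design text calls the replicates biological triplicates. The p-values below measure the spread between these libraries only, which holds both the hearts and the preparation of the libraries.

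The heart takes most of its energy from fatty acids. Lipoprotein lipase frees them from circulating lipoproteins, the membrane protein *Cd36* and the binding protein *Fabp3* bring them through the cell, and *Acsl1* joins them to coenzyme A. The carnitine shuttle then carries the acyl group into mitochondria, where a cycle of dehydrogenation, hydration, a further dehydrogenation and thiolysis shortens the chain and hands electrons to the respiratory chain. Nuclear receptors such as *Ppara*, with the coactivator *Ppargc1a*, switch on many of these genes, and *Pdk4* holds back the competing use of glucose by inactivating pyruvate dehydrogenase.

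The label of the tissue was checked first for heart muscle, not for the chamber. All 8 cardiomyocyte markers (*Myh6*, *Tnnt2*, *Tnni3*, *Actc1*, *Myl2*, *Ryr2*, *Mb* and *Pln*) were detected in every library, with summed footprint levels of 107614 to 117277 CPM (counts scaled to a common library total) over the 6 footprint libraries. Total counts were 3827862 to 7474602 in footprint libraries and 6635242 to 8459004 in RNA libraries, of which 49.8% to 58.2% came from mitochondrially encoded genes in RNA and 2.28% to 5.22% in footprints. *Rpl3l* itself was at 428, 354 and 349 CPM in WT and 40.8, 46.4 and 44.7 CPM in KO in RNA and at 193, 259.6 and 234 CPM in WT and 8.76, 4.40 and 12.8 CPM in KO in footprints, so every KO library lay below every WT library, as labelled. Among the RNA libraries the first principal component (46.2% of the variance) set WT 3, KO 1 and KO 3 apart from WT 1, WT 2 and KO 2. Among the footprint libraries it (38.2%) set WT 1 apart from the other 5.

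Per kilobase (kb) of coding sequence, footprints in WT were densest on *Fabp3*, *Lpl*, *Hadhb*, *Hadh* and *Acadl*. *Fabp3*, the fatty acid binding protein of heart muscle cells, stood first at 10467 ± 1673 footprint CPM per kb (mean ± SD, n = 3). *Lpl* followed at 4279 ± 449, *Hadhb* at 2785 ± 218, *Hadh* at 1539 ± 118 and *Acadl* at 1388 ± 123 footprint CPM per kb. The same 5 genes held the first 5 places in KO. The gaps from *Fabp3* to *Lpl* and from *Lpl* to *Hadhb* exceeded the SDs, whereas the mean ± SD ranges of *Hadh*, *Acadl* and *Acaa2*, the mitochondrial thiolase at 1363 ± 74.4, overlapped. At the other end stood *Acot1* at 8.501 ± 1.34, *Cpt1b* at 8.66 ± 0.829, the peroxisomal enzyme gene *Ehhadh* at 20.9 ± 4.53, *Ppara* at 32.2 ± 3.85 and *Cpt1a* at 35.4 ± 2.1 footprint CPM per kb. *Acot1* and *Cpt1b* did not differ beyond their SDs, nor did *Ppara* and *Cpt1a*.

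RNA levels gave a different order. Per kb of transcript the first places in WT were *Fabp3* at 1633 ± 236, *Etfb* at 1164 ± 380, *Acot13* at 598 ± 128, *Acaa2* at 314 ± 1.61 and *Acadvl* at 238 ± 5.55 RNA CPM per kb (mean ± SD, n = 3). Only *Fabp3* was among the first 5 in both assays. *Hadh*, in place 4 by footprints, was in place 23 by RNA, and *Pdk4*, in place 17 by footprints, was in place 33 by RNA. Per kb of coding sequence in place of whole transcript, 4 of these 5 genes kept a place among the first 5 by RNA.

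**Figure D1:**
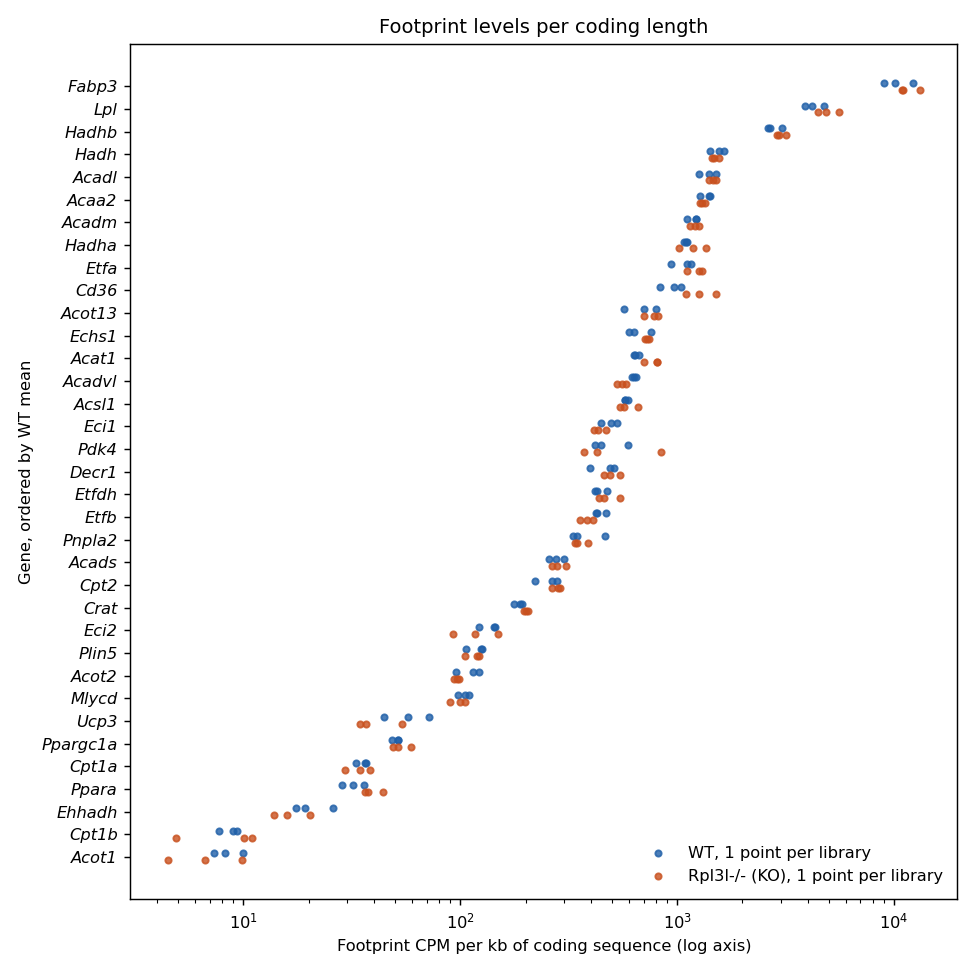
Footprint CPM per kb of coding sequence (horizontal log axis) for the 35 genes, ordered by the WT mean, with 1 point per library and WT and KO in separate colours. Fabp3, Lpl and Hadhb stand above all others in both genotypes, and the points of the genotypes lie close together along the whole order.

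Several of these levels carry a limit from sequence shared with other transcripts. Of the 35 genes, 24 had no coding window of 28 bases that is identical in a transcript of another gene, and 9 shared over 10% of their windows. *Hadhb* shared 95.3% of its windows, mostly with the pseudogene *Gm13910*, and *Fabp3* 82.1%, mostly with *Fabp3-ps1*. *Etfb* shared 76.9% with the annotated gene *Gm45233*, *Cpt1b* 95.2% with *Gm44502*, a gene annotated over it, *Acadm* 22.7%, *Eci2* 22.4% and *Etfa* 19.0%. The row of *Gm44502* held 0 to 7 counts in the 12 libraries. *Acot1* shared 70.4% and *Acot2* 57.5% of their windows, mostly with each other. How the authors' counting treated reads that match several transcripts is not given in the sources used here, so the levels of these 9 genes are uncertain.

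The 35 genes were also summed, to give their part of all footprints and of all RNA. The summed footprint level was 36722, 33450 and 35099 CPM in WT and 36029, 41242 and 36610 CPM in KO, a ratio of means of 1.08. The summed RNA level was 6911, 6140 and 6657 CPM in WT and 6506, 6146 and 6334 CPM in KO, a ratio of 0.963. The groups overlapped in both assays on this scale. By role, the ratio of footprint means ran from 0.80 (*Ehhadh* alone) to 1.17 (the 3 uptake genes, with means of 11655 CPM in WT and 13625 CPM in KO). As a share of unscaled counts from nuclear genes, the set made up 3.73%, 3.39% and 3.72% of WT footprints and 3.77%, 4.20% and 3.81% of KO footprints. On that scale every KO footprint library lay above every WT library, with means of 3.61% ± 0.19 and 3.93% ± 0.23 (SD, n = 3 each), so whether the footprint groups overlap depended on the scale. In RNA the shares were 1.43% ± 0.17 in WT and 1.47% ± 0.15 in KO, with overlapping groups. In bulk tissue, fewer cells of a type and less RNA per cell cannot be told apart.

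**Figure D2:**
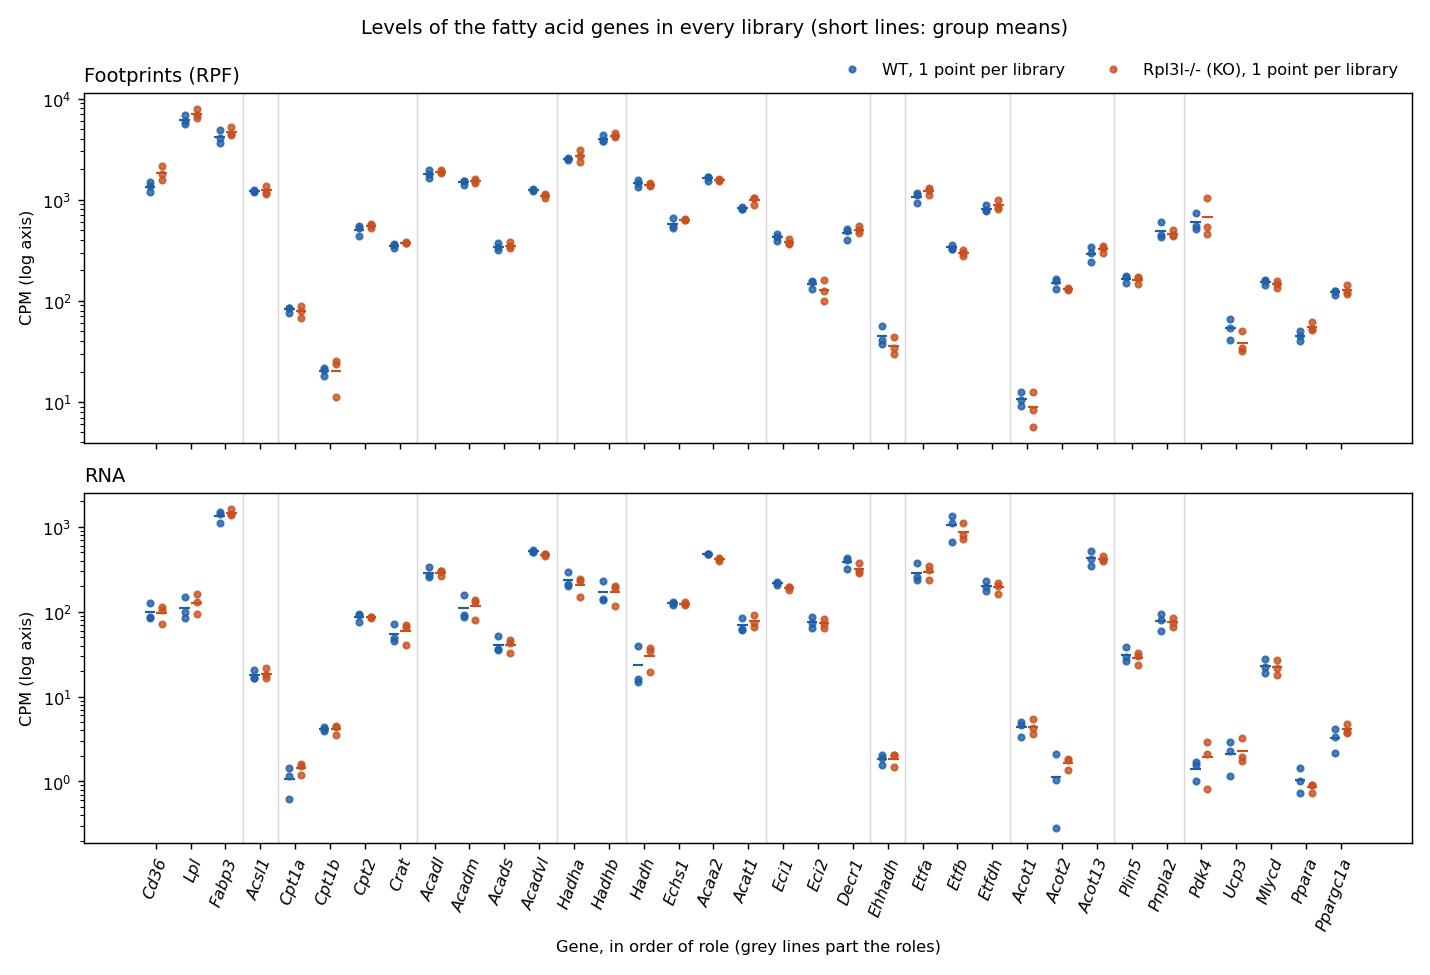
CPM (log axis) of the 35 genes in every library, footprints above and RNA below, in order of role, with 1 point per library and short lines for group means. WT and KO points overlap for most genes, and the order of genes differs between the panels, as for Pdk4, Hadh and Etfb.

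Whether the loss of *Rpl3l* changed the RNA of these genes was asked with edgeR's quasi-likelihood test over all genes, with Benjamini-Hochberg adjusted p-values and a call at an adjusted p below 0.05. In RNA 0 of the 34 genes tested were called, where 0.0119% of the 8379 genes tested were called. The 1 gene called was *Rpl3l* itself (adjusted p = 8.2e-05). *Ppara*, with 5 to 11 RNA counts per library, did not pass the filter on low counts. At an unadjusted p below 0.05, 0 of the 34 passed, against 2.54% of all genes, and DESeq2 likewise gave 0 of 34 at either threshold. The log2 fold changes, KO against WT, ran from -0.27 (*Decr1*) to 0.47 (*Cpt1a*), with 16 higher, 18 lower and a median of -0.01, the same as the median of all genes tested (-0.01). The median SE of the 34 was 0.22.

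In footprints 0 of 35 genes were called, where 0.00897% of the 11153 genes tested were called, and DESeq2 called 0 of 35 as well. The 1 gene called in edgeR's test was again *Rpl3l* (adjusted p = 2.5e-07). At an unadjusted p below 0.05, 3 of 35 passed by either tool (*Cd36*, *Acat1* and *Ucp3* in edgeR), against 5.96% of all genes in edgeR. The log2 fold changes ran from -0.48 (*Ucp3*) to 0.44 (*Cd36*), with 20 higher, 15 lower and a median of 0.04, beside 0.00 for all genes tested. The median SE was 0.13. Of the 35, 29 lay within 0.25 of 0 in footprints, against 58.7% of all genes, and 28 of 34 did in RNA, against 67.4%. The median SE over all genes was larger than that of the set, at 0.26 in footprints and 0.27 in RNA.

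The ratio of footprints to RNA between genotypes (translational efficiency, TE, read as the assay-by-genotype term in a fit of all 12 libraries) gave 0 of 34 calls, where 0% of 8044 genes were called. At an unadjusted p below 0.05 it gave 0 of 34, against 3.73% of all genes, and DESeq2 gave 0 of 34 at either threshold. TE log2 fold changes ran from -0.63 (*Acot2*) to 0.50 (*Cd36*), 22 higher and 12 lower, with a median of 0.04 beside 0.01 for all genes and a median SE of 0.27. Both extremes were within 2 SEs of 0 (SE 0.47 for *Acot2* and 0.29 for *Cd36*).

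**Figure D3:**
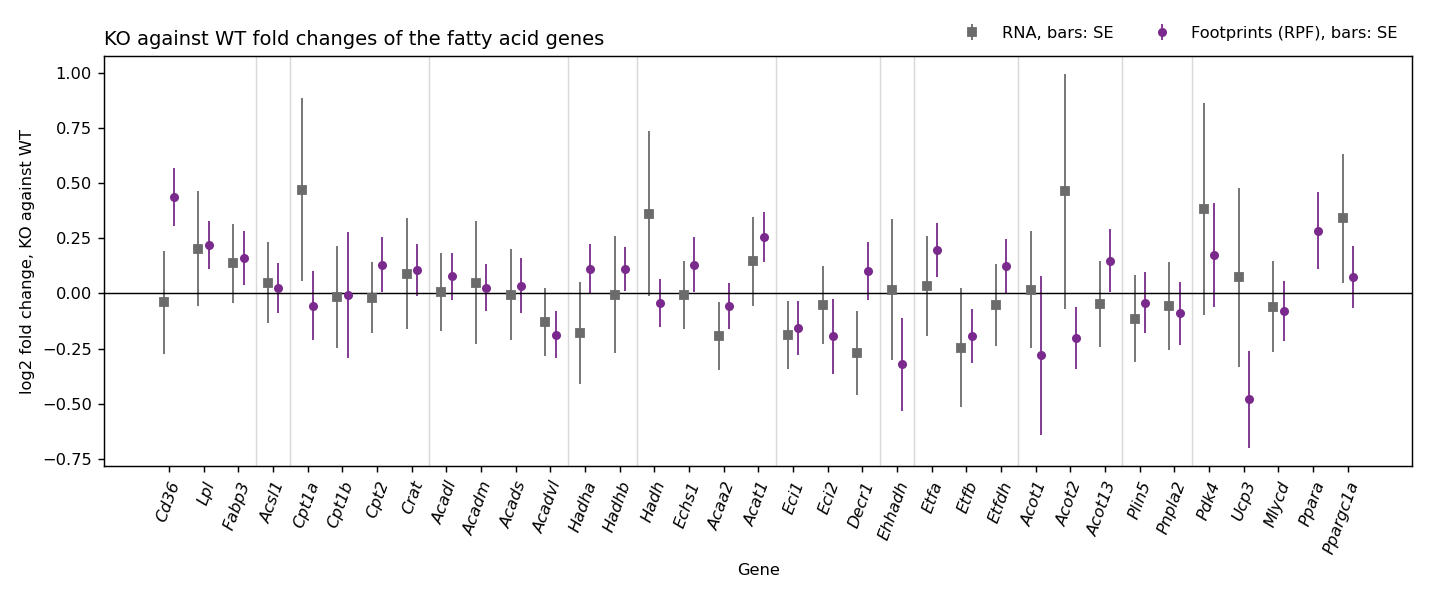
The log2 fold change, KO against WT, of each gene in RNA (squares) and footprints (circles), with bars of 1 SE. Cd36 has the highest footprint value (0.44) and Ucp3 the lowest (-0.48), and most other genes lie within 0.25 of 0.

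Complete separation of the WT and KO libraries was counted where a gene's mean count was 50 or more. In RNA this held for 3 of 26 genes (*Acaa2*, *Acadvl* and *Eci1*, each lower in KO), against 6.48% of all genes, and by direction 0 were higher in KO, against 2.83%, and 3 lower, against 3.65%. In footprints it held for 6 of 35 (*Cd36*, *Acat1*, *Crat* and *Ppara* higher in KO, *Acadvl* and *Etfb* lower in KO), against 12.6% of all genes, and by direction 4 were higher, against 6.75%, and 2 lower, against 5.89%. *Acadvl* was the only gene on both lists. None of these differences passed the adjusted threshold.

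Among the uptake genes, *Cd36*, the membrane protein that takes up long-chain fatty acids (gene ENSMUSG00000002944.15, chr5:17781690-17849792 on the minus strand, GRCm38, 15 exons), was at 1483, 1187 and 1379.5 CPM in WT and 1557, 2134 and 1789 CPM in KO in footprints. The lowest KO library was thus above the highest WT library. The log2 fold change was 0.44 (adjusted p = 0.834, SE 0.13) in footprints. In RNA the *Cd36* libraries read 83.9, 87.3 and 126 CPM in WT and 114, 70.8 and 105 CPM in KO, the groups overlapped, and the log2 fold change was -0.04 (adjusted p = 0.999, SE 0.23). Leaving out a library moved the footprint value between 0.31 (without KO 2) and 0.54 (without KO 1), and it was 0.51 without WT 1, the library set apart in footprints. The lowest adjusted p over all alternatives was 0.083, without a filter, and the highest 1.00.

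*Cd36* is also carried by endothelial cells and adipocytes, and *Lpl* and *Pnpla2* by adipocytes. The summed footprint level of 6 endothelial markers was 1666 to 2078 CPM in WT and 1950 to 2046 CPM in KO, with all 6 detected in every library. Of the 6, 4 were higher in KO and *Gpihbp1* and *Fabp4* lower, with a median log2 fold change of 0.11 and 0 called. *Fabp4* made up a large part of the sum, at 637 to 1067 CPM in WT and 737 to 1036 CPM in KO. The summed footprint level of 8 adipocyte markers was 234 to 1050 CPM in WT and 329 to 721 CPM in KO, highest in WT 2 and KO 2, and *Lep* was at 0 in at least 1 library. Of the 7 adipocyte markers tested, 0 were higher in KO, with a median log2 fold change of -0.19 and 0 called. *Cd36* was lowest in WT 2 among the WT footprint libraries and highest in KO 2. The part of these cells in the difference was not tested.

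*Lpl*, the lipase of the capillary wall that the heart muscle cell makes, was at 6801, 5552 and 5938 CPM in WT and 6378, 7967 and 6941 CPM in KO in footprints, with overlapping groups and a log2 fold change of 0.22 (adjusted p = 0.834, SE 0.11). *Fabp3* was at 4055, 3625 and 4944 CPM in WT and 4383, 5289.9 and 4435 CPM in KO in footprints and at 1479.98, 1121 and 1431 CPM in WT and 1620.5, 1397 and 1414 CPM in KO in RNA. Its groups overlapped in both assays, with log2 fold changes of 0.16 (SE 0.12) and 0.14 (SE 0.18). All 3 uptake genes had positive footprint values, of which none passed the adjusted threshold. Activation was represented by *Acsl1*, the main long-chain acyl-CoA synthetase of heart muscle, at 1246, 1205 and 1202 CPM in WT and 1193, 1379.5 and 1147 CPM in KO in footprints. Its groups overlapped, with a log2 fold change of 0.03 (SE 0.11).

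The carnitine shuttle begins with carnitine palmitoyltransferase of the outer membrane, in a form typical of liver (*Cpt1a*) and a form typical of muscle (*Cpt1b*). *Cpt1a* was at 84.1, 85.6 and 76.6 CPM in WT and 68.2, 89.1 and 79.9 CPM in KO in footprints and at 1.15, 1.43 and 0.629 CPM in WT and 1.62, 1.198 and 1.52 CPM in KO in RNA, the latter from 6 to 15 counts. *Cpt1b* was at 21.6, 17.9 and 20.7 CPM in WT and 11.3, 25.5 and 23.5 CPM in KO in footprints and at 4.44, 4.16 and 3.98 CPM in WT and 3.55, 4.49 and 4.35 CPM in KO in RNA. KO 1 gave the lowest footprint value of *Cpt1b* and the groups overlapped for both genes. *Cpt1a* made up 77.3% to 85.8% of the footprint counts of the pair over the 6 libraries and 13.6% to 31.4% of their RNA counts. The share of the pair is uncertain, since 95.2% of the coding windows of *Cpt1b* recur in an overlapping annotated gene while none of those of *Cpt1a* recur.

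Of the other shuttle genes, *Cpt2*, the transferase of the inner membrane, had log2 fold changes of 0.13 (SE 0.13) in footprints and -0.02 (SE 0.16) in RNA. *Crat*, which moves short acyl groups to carnitine, was at 356, 334 and 361 CPM in WT and 377, 386 and 369 CPM in KO in footprints, so that the KO libraries lay above the WT libraries by a narrow margin, with a log2 fold change of 0.11 (adjusted p = 0.923, SE 0.12). Its RNA groups overlapped (log2 fold change 0.09, SE 0.25).

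The acyl-CoA dehydrogenases start each turn of the cycle and differ in the chain length they take: *Acadvl* for very long, *Acadl* for long, *Acadm* for medium and *Acads* for short chains. *Acadvl* was at 1246, 1273 and 1224 CPM in WT and 1102, 1141 and 1043 CPM in KO in footprints and at 512, 506 and 529 CPM in WT and 457, 479 and 477 CPM in KO in RNA, so all 3 KO libraries lay below all 3 WT libraries in both assays. The log2 fold changes were -0.19 (adjusted p = 0.840, SE 0.11) in footprints and -0.13 (adjusted p = 0.999, SE 0.15) in RNA. Without 1 library at a time they stayed between -0.22 and -0.15 in footprints and between -0.15 and -0.11 in RNA. *Acadl*, at 1949, 1805 and 1632 CPM in WT and 1964, 1898 and 1818 CPM in KO in footprints, overlapped between groups (log2 fold change 0.08, SE 0.11). *Acadm* and *Acads* had footprint values of 0.03 (SE 0.11) and 0.04 (SE 0.13).

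The trifunctional protein carries out the remaining steps on long chains, with the hydratase and dehydrogenase on the alpha subunit (*Hadha*) and the thiolase on the beta subunit (*Hadhb*), in equal number. The genes stand head to head on chromosome 5 of GRCm38: *Hadha* from 30118304 to 30155162 on the minus strand and *Hadhb* from 30155272 to 30184589 on the plus strand, so that their GENCODE starts are 110 bases apart. In RefSeq the starts are 273 bases apart. The stretch common to both intervals is shown because both genes are read outward from it. It holds the 90 bases chr5:30155163-30155252 on the plus strand (RefSeq promoter sequence, GRCm38.p6), from the GENCODE start of *Hadha* to the RefSeq start of *Hadhb* and so not the whole interval of either annotation, with the 2 GC boxes, GGGCGG, in capitals.
Hadha-Hadhb stretch: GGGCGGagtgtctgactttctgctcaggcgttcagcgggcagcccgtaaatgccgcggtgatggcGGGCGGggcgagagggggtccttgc

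A GC box (GGGCGG, either strand) was present in 20 of the 30 RefSeq promoters of the 28 genes matched (66.7%), against 35.7% of 32851 mouse promoters of the same length, 250 bases before to 50 after the start. A TATAAA box was present in 0 of 30, against 13.6%. The direct repeat of AGGTCA with 1 base between, the form that PPAR receptors bind, was in 0 of 30, against 0.0396%, and the single motif AGGTCA, which lies within that repeat, was in 8 of 30, against 16.3%. These matches describe letters in these windows only.

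*Hadha* was at 2555, 2462 and 2526 CPM in WT and 2332, 3101 and 2715 CPM in KO and *Hadhb* at 4334, 3764 and 3832 CPM in WT and 4134, 4524 and 4216 CPM in KO in footprints, with overlapping groups and log2 fold changes of 0.11 (SE 0.11) and 0.11 (SE 0.10). In RNA *Hadha* was at 210.3, 203 and 293 CPM in WT and 231, 151 and 242 CPM in KO and *Hadhb* at 143, 137 and 233 CPM in WT and 201, 118 and 191 CPM in KO. Both genes were lowest in KO 2 and highest in WT 3 by RNA. The ratio of *Hadhb* to *Hadha* per kb of coding sequence was 1.08 to 1.40 over the 6 RNA libraries and 2.34 to 2.85 over the 6 footprint libraries. The ranges of the assays did not overlap. Since 95.3% of the coding windows of *Hadhb* recur in other transcripts, its part of this ratio is uncertain.

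For shorter chains the later steps fall to separate enzymes: *Echs1* (hydratase), *Hadh* (dehydrogenase), *Acaa2* (thiolase) and *Acat1*, the thiolase of the last, short fragments. *Hadh* was at 1469.5, 1557 and 1336 CPM in WT and 1474, 1392 and 1369 CPM in KO in footprints, a narrow range with overlapping groups. By RNA it was at 15.1, 16.1 and 39.6 CPM in WT and 37.8, 19.3 and 34.2 CPM in KO, with the 3 libraries WT 3, KO 1 and KO 3 well above the others. Its log2 fold changes were -0.04 (SE 0.11) in footprints and 0.36 (SE 0.37) in RNA.

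*Acaa2* was at 473, 478 and 476 CPM in WT and 424, 399.7 and 423 CPM in KO in RNA, with every KO library lower, and the log2 fold change was -0.19 (adjusted p = 0.999, SE 0.15). Its footprint groups overlapped (1673, 1684 and 1525 CPM in WT and 1563, 1613 and 1521 CPM in KO), with a value of -0.06 (SE 0.10). *Acat1* was at 850.4, 809 and 817 CPM in WT and 1034, 1031 and 894 CPM in KO in footprints, with every KO library higher, and the log2 fold change was 0.26 (adjusted p = 0.834, SE 0.11). Its RNA groups overlapped (log2 fold change 0.15, SE 0.20). *Echs1* gave 0.13 (SE 0.12) in footprints.

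Unsaturated chains need the isomerases *Eci1* and *Eci2* and the reductase *Decr1*. *Eci1* was at 223, 209 and 221 CPM in WT and 197, 179 and 198 CPM in KO in RNA, with every KO library lower, and its log2 fold change was -0.19 (adjusted p = 0.999, SE 0.16). In footprints its groups overlapped (-0.16, SE 0.12). *Decr1* was at 412, 429 and 321 CPM in WT and 299, 377 and 289 CPM in KO in RNA and at 517, 401 and 492 CPM in WT and 550.4, 496 and 465 CPM in KO in footprints, with log2 fold changes of -0.27 (SE 0.19) and 0.10 (SE 0.13). *Eci2* was at 154, 156 and 132 CPM in WT and 99.8, 160.3 and 126 CPM in KO in footprints, and its groups overlapped (log2 fold change -0.19, SE 0.17). *Ehhadh*, the peroxisomal enzyme that joins the hydratase and dehydrogenase steps, gave -0.32 (SE 0.21) in footprints.

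Electrons leave the dehydrogenases through the electron transfer flavoprotein, made of an alpha subunit (*Etfa*) and a beta subunit (*Etfb*), and its oxidoreductase *Etfdh*. *Etfb* was at 325, 359 and 327 CPM in WT and 295, 275 and 315 CPM in KO in footprints, with every KO library lower, and the log2 fold change was -0.19 (adjusted p = 0.853, SE 0.12). In RNA *Etfb* was at 1342, 1105 and 672 CPM in WT and 717, 1110.3 and 804 CPM in KO, with WT 3 lowest and overlapping groups. *Etfa* gave 0.20 (SE 0.12) in footprints and *Etfdh* 0.12 (SE 0.12). The footprint values of the subunits thus had opposite signs, and the difference between them was not tested.

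Thioesterases release fatty acids from coenzyme A: *Acot1* in the cytosol, *Acot2* in mitochondria and *Acot13* at mitochondria. *Acot1* and *Acot2* are near-identical neighbours on the plus strand of chromosome 12 (GRCm38), *Acot2* from 83987861 to 83993873 and *Acot1* from 84009490 to 84018371, with 15617 bases between them. Their coding sequences were identical at 95.2% of 1239 aligned bases, and *Acot2* had 123 coding bases before the start of *Acot1*. The first 40 coding bases of *Acot1* (positions 1 to 40) and the aligned 40 of *Acot2* (positions 124 to 163), from GENCODE M21, are shown because reads from this stretch can tell the copies apart. The 9 bases that differ are in capitals.
Acot1: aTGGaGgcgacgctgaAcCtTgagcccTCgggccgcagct
Acot2: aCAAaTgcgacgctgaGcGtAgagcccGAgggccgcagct

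*Acot2* was at 166, 156 and 130.1 CPM in WT and 131, 135 and 127 CPM in KO in footprints and at 0.287, 1.04 and 2.10 CPM in WT and 1.77, 1.35 and 1.82 CPM in KO in RNA, the latter from 2 to 20 counts. *Acot1* was at 12.5, 9.22 and 10.4 CPM in WT and 5.66, 12.5 and 8.38 CPM in KO in footprints and at 4.59, 3.38 and 5.03 CPM in WT and 4.28, 5.39 and 3.64 CPM in KO in RNA. *Acot2* made up 91.5% to 95.9% of the footprint counts of the pair over the 6 libraries, and 5.88% to 33.3% of their RNA counts. *Acot2* thus held the larger share in all 6 footprint libraries and *Acot1* in all 6 RNA libraries. Because the copies share most windows, this split depends on a counting step that is not given in the sources used here. Footprint log2 fold changes were -0.20 (SE 0.14) for *Acot2*, -0.28 (SE 0.36) for *Acot1* and 0.15 (SE 0.14) for *Acot13*. The RNA value of *Acot1*, 0.02 (SE 0.26), changed sign without WT 2 (-0.13) and without KO 2 (-0.15).

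On the lipid droplet, *Plin5* coats the droplet next to mitochondria and *Pnpla2* cuts the first fatty acid from stored triglyceride. *Plin5* gave -0.04 (SE 0.14) and *Pnpla2* -0.09 (SE 0.14) in footprints, with overlapping groups for both.

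Of the control genes, *Ppara*, the fatty acid-sensing nuclear receptor, was at 50.8, 45.1 and 39.97 CPM in WT and 61.8, 51.02 and 52.6 CPM in KO in footprints. Every KO library was higher, with 51.0 CPM in the lowest KO and 50.8 CPM in the highest WT library, and the log2 fold change was 0.29 (adjusted p = 0.849, SE 0.17). Its RNA was at 1.0035, 1.43 and 0.733 CPM in WT and 0.739, 0.899 and 0.911 CPM in KO and was too low for the test. *Ppargc1a*, the coactivator of mitochondrial genes, was at 124, 115 and 124 CPM in WT and 117, 123 and 143 CPM in KO in footprints and at 2.15, 4.16 and 3.35 CPM in WT and 3.84, 4.79 and 3.75 CPM in KO in RNA, with overlapping groups in both.

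*Ucp3*, an uncoupling protein of the inner membrane that PPAR receptors induce, was at 66.9, 53.5 and 41.5 CPM in WT and 33.96, 49.996 and 31.9 CPM in KO in footprints, where KO 2 lay inside the WT range. Its log2 fold change was -0.48 (adjusted p = 0.834, SE 0.22), and it ran from -0.71 without KO 2 to -0.29 without WT 1, the highest library. *Mlycd*, which breaks down the malonyl-CoA that inhibits carnitine palmitoyltransferase, gave -0.08 (SE 0.14) in footprints. *Pdk4* was at 518, 553 and 736 CPM in WT and 463, 1044 and 532 CPM in KO in footprints. KO 2 was the highest and KO 1 the lowest of the 6 libraries, and the log2 fold change was 0.17 (SE 0.24).

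The design also allows footprints to be set against RNA within a genotype. The log2 ratio used here is a contrast of the 12-library fit and is relative to the scaled average of the 8044 genes tested, so it is not the quotient of the CPM values above, which were scaled within each assay. In WT, 28 of the 34 genes tested were called in edgeR's quasi-likelihood test (adjusted p below 0.05), where 73.8% of all genes were called. Of these, 22 carried more footprints per RNA than the average, against 38.3% of all genes, and 6 carried fewer, against 35.6%. In KO 29 were called, against 72.6% of all genes, with 23 higher (37.9% of all genes) and 6 lower (34.7%). The median log2 ratio of the 34 genes was 1.00 in WT and 1.06 in KO, beside 0.05 and 0.08 for all genes. Since KO and WT gave nearly the same order (Spearman's rho 0.99 over the 34 genes, from one fit), WT values are given below.

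*Pdk4* (gene ENSMUSG00000019577.6, chr6:5483351-5496309 on the minus strand, GRCm38, 11 exons) had the highest ratio of all 8044 genes in WT and in KO. Its RNA was at 1.0035, 1.69 and 1.57 CPM in WT and 2.95, 2.10 and 0.810 CPM in KO, from 7 to 20 counts, against footprint levels of 463 to 1044 CPM. The log2 ratio was 7.04 (SE 0.43), and 6.87 in KO. Next in the set came *Acot2* at 5.29 (SE 0.32), *Cpt1a* at 4.63 (SE 0.26) and *Acsl1* at 4.42 (SE 0.19). The RNA of *Acsl1* was at 16.6, 20.8 and 16.6 CPM in WT and 21.6, 16.5 and 17.8 CPM in KO, and that of *Cpt1a* and *Acot2* stood at 6 to 15 and 2 to 20 counts per library, so the ratios of *Pdk4*, *Cpt1a* and *Acot2* rest on few RNA counts. The ratio of *Acot2* is also uncertain because of the sequence it shares with *Acot1*.

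The lowest ratios in the set were those of *Etfb* at -3.29 (SE 0.25), *Acot13* at -2.22 (SE 0.19), *Decr1* at -1.38 (SE 0.18) and *Eci2* at -0.70 (SE 0.19), which was level with *Eci1* at -0.70 (SE 0.14). *Etfb* and *Eci2* are among the 9 genes with shared sequence, so their ratios are uncertain. *Acot13* was at 527, 423 and 343 CPM in WT and 406, 451 and 394 CPM in KO in RNA and at 339, 239.8 and 297 CPM in WT and 345, 329.7 and 297 CPM in KO in footprints. *Eci2* was at 74.7, 65.2 and 86.4 CPM in WT and 81.98, 64.4 and 71.9 CPM in KO in RNA. With a filter at a mean count of 50, the ratio of *Eci2* was -0.15 and was no longer called (adjusted p = 0.488), since that filter moved the zero point: log2 ratios rose by a median of 0.55 over the genes common to both filters. Under the same filter the WT ratios of *Fabp3* and *Acadvl* turned positive.

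The sequences around the start codons of these 8 genes are shown because initiation acts there. Each has 10 bases before the start codon, the start codon ATG in capitals and 7 bases after it (GENCODE M21, GRCm38, coding strand), in order of the WT ratio.
Pdk4: gggcgtcaggATGaaggcag
Acot2: acgacgcaaaATGgtggcct
Cpt1a: accactcaagATGgcagagg
Acsl1: acccagaaccATGgaagtcc
Eci2: cagaccaacaATGagagcca
Decr1: tgctgcagacATGgcgctgc
Acot13: tgcgtccacgATGagcagca
Etfb: ctgcaggaagATGgcggagc

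A purine 3 bases before the start codon, the main feature of a strong start, was present in all 8. Over the 34 genes tested in both assays (*Acaa2* included, *Ppara* not) it was present in 31 (91.2%), against 87.5% of 7887 genes. A G directly after the ATG was present in 23 (67.6%), against 54.2%, and 26 (76.5%) had no ATG upstream in the 5′ UTR, against 49.9%. Split by the sign of the ratio, the purine was present in 23 of 26 genes with positive and 8 of 8 with negative log2 ratios.

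The ratio followed the length of the 3′ UTR, the untranslated end of the mRNA. Spearman's rho between the 2 was 0.71 over the 34 genes and 0.38 over 7981 genes, as a description across genes that share the same 12 libraries. Length of the whole transcript, which includes the 3′ UTR, gave 0.62 and 0.31, coding length 0.46 and 0.20, the GC content of the coding sequence -0.00 and 0.04, and the length of the 5′ UTR 0.08 and 0.01. Among the 34 genes, the 17 with a 3′ UTR over 588 bases had a median log2 ratio of 2.93, and the 17 others 0.35. Over all genes the medians were 0.78 and -0.73 at the same length. Relative to the median of genes of similar 3′ UTR length (20 bins), 29 of the 34 lay above 0, with a median of 1.01.

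Individual genes show the pattern and its exceptions. *Etfb* and *Acot13*, with the lowest ratios, had 3′ UTRs of 60 and 87 bases, and *Pdk4*, *Cpt1a* and *Lpl*, with high ratios, had 2098, 1892 and 2428 bases. *Decr1* (1795 bases, -1.38, SE 0.18) and *Acot1* (992 bases, -0.35, SE 0.32) combined a long 3′ UTR with a low ratio. *Hadhb* (501 bases, 2.88, SE 0.23) combined a shorter 3′ UTR with a high one. The ratios of *Etfb*, *Acot1* and *Hadhb* are uncertain, since these are among the 9 genes with shared sequence. The correlation above includes all 9. Whether the counts cover whole transcripts or coding sequences is not given in the sources used here, and its part in this relation was not tested.

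**Figure D4:**
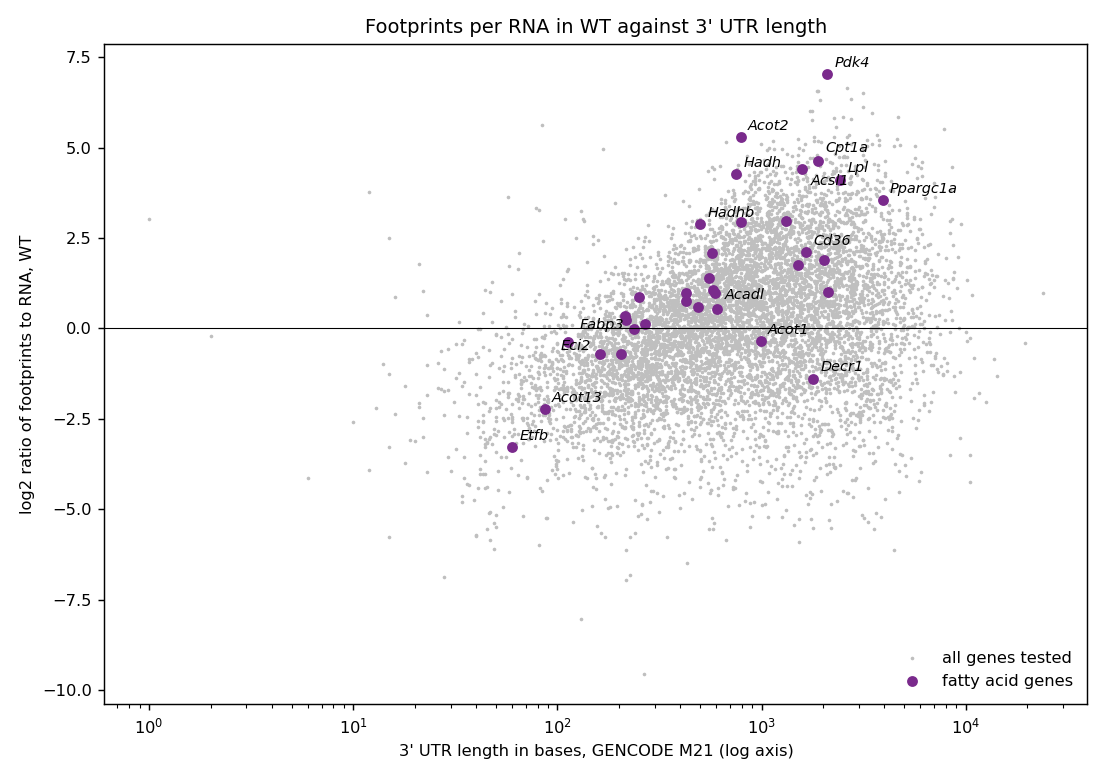
The log2 ratio of footprints to RNA in WT against 3′ UTR length in bases (log axis) for all genes tested (grey) and the fatty acid genes (purple, some labelled). Pdk4 lies highest of all genes at 7.04, and Etfb and Acot13 lie at the lower left with short 3′ UTRs.

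The RNA levels of the set moved along the split of the RNA libraries named above more than between genotypes. In 14 of 34 genes all of WT 3, KO 1 and KO 3 were higher than all of WT 1, WT 2 and KO 2, and in 3 (*Acot13*, *Decr1* and *Etfb*) all were lower, which makes 50% against 36.1% of all genes. The split was computed from the same libraries, so this is a description. The largest difference was that of *Hadh*, with means of 37.2 CPM on the side of WT 3 and 16.8 CPM on the other, followed on the log2 scale by *Acot2* (1.90 and 0.891 CPM, from 2 to 20 counts), *Acadm* (142 and 85.9 CPM), *Lpl* (147 and 92.4 CPM) and *Hadhb* (209 and 133 CPM). *Etfb* went the other way, with 731 and 1186 CPM. The log2 difference between the sides had a Spearman's rho with the WT ratio of footprints to RNA of 0.55 over the 34 genes and 0.50 over 7981 genes. Both measures use the RNA values of the WT libraries, so they are not independent and part of this correlation may be built in.

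With a factor for the side in the fit, the RNA SEs of many genes fell, and 0 of 34 genes were called. The side was taken from the same RNA libraries, so part of this fall may be built in and the p-values of this fit may be too small. At an unadjusted p below 0.05 there were then 3: *Hadha* (log2 fold change -0.38, SE 0.12, adjusted p = 0.467), *Cd36* (-0.24) and *Hadhb* (-0.24), each lower in KO, where 6.04% of all genes passed that threshold in the same fit. The sign of 10 genes changed with the factor (*Acadl*, *Acadm*, *Acot13*, *Cpt1b*, *Crat*, *Ehhadh*, *Etfa*, *Etfb*, *Lpl* and *Ucp3*), so their RNA values in either direction are within what the split moves. Adipocyte markers in RNA summed to 108 to 284 CPM in WT and 76.4 to 196 CPM in KO, and endothelial markers to 537 to 780 CPM in WT and 651 to 895 CPM in KO. All 6 endothelial markers were higher in KO in RNA (median log2 fold change 0.28), and 0 of the 6 adipocyte markers tested were (median -0.55), with 0 called in either list. Atrial markers summed to 1681 to 2615 and 2053 to 4136 CPM, highest in KO 2. All 4 atrial markers were higher in KO, with median log2 fold changes of 0.63 in RNA and 0.27 in footprints. In edgeR's test 3 of the 4 had an unadjusted p below 0.05 in RNA and 2 in footprints, and 0 were called. Of the 8 cardiomyocyte markers, 1 was higher in KO in RNA and 5 in footprints, with median log2 fold changes of -0.12 and 0.01. In the same test 0 of the 8 had an unadjusted p below 0.05 in RNA and 2 in footprints, and 0 were called. These 2 were *Tnni3* (-0.26) and *Myl2* (-0.30), with every KO footprint library below every WT library. The part of adipocytes, endothelial cells, atrial cells and heart muscle cells in the values of the fatty acid genes was not tested.

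**Figure D5:**
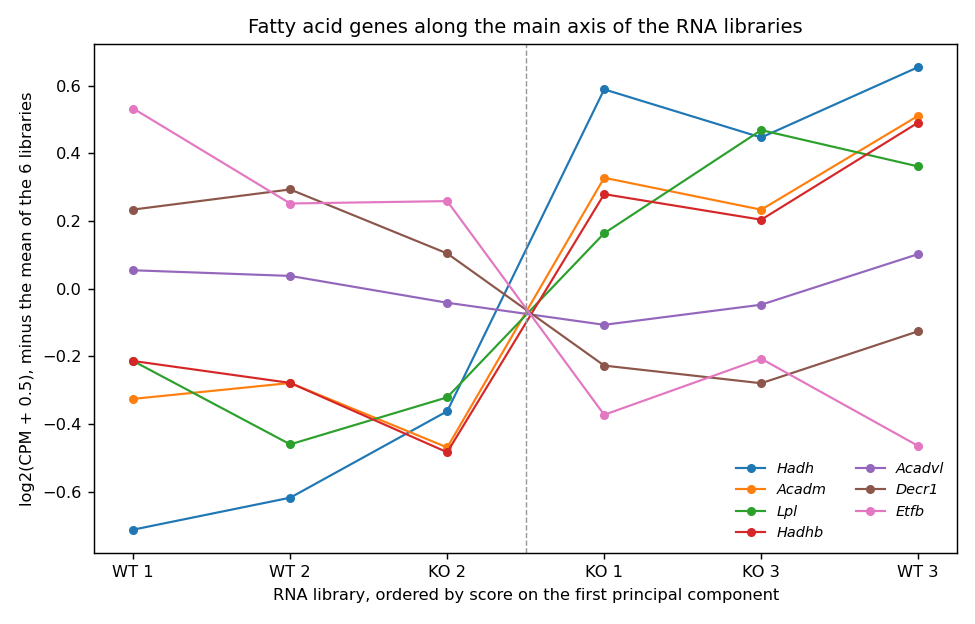
Log2(CPM + 0.5) of 7 genes in the 6 RNA libraries, minus each gene's mean over them, with the libraries ordered by score on the first principal component. Hadh, Acadm, Lpl and Hadhb are higher in KO 1, KO 3 and WT 3, Decr1 and Etfb are lower there, and Acadvl changes little.

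For the 35 genes, replicates were closer for footprints than for RNA. Counts per gene differed between the assays, and their part in this was not tested. The median coefficient of variation of the 35 genes was 9.10% in WT and 8.21% in KO footprints, against 21.1% and 17.1% for all genes. In RNA it was 21.3% in WT and 15.8% in KO, against 21% and 19.2%. Footprints of *Hadha* (1.89%) were the steadiest in WT and those of *Ucp3* (23.6%) the least steady. In KO, *Echs1* (1.73%) and *Pdk4* (46.7%) held these places.

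Other genes of the pathway were read in the same fits: transporters, further acyl-CoA synthetases and carnitine enzymes, auxiliary mitochondrial and peroxisomal enzymes, thioesterases, lipid storage, ketone use and further regulators, 112 genes in all, of which 109 had a row. In RNA 0 of 83 tested, in footprints 0 of 102 and in TE 0 of 83 were called in edgeR's test. At an unadjusted p below 0.05 there were 2, 2 and 0, near or below the shares of all genes given above. Medians were -0.03 in RNA, -0.02 in footprints and 0.01 in TE.

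Of these, 3 combined an unadjusted p below 0.05 with separate groups. *Slc27a1*, a fatty acid transport protein, was at 13.6, 16.6 and 18.8 CPM in WT and 22.2, 27.6 and 19.9 CPM in KO in RNA, with every KO library higher and a log2 fold change of 0.50 (adjusted p = 0.999, SE 0.19). *Echdc2*, related to the enoyl-CoA hydratases, was at 27.95, 32.3 and 24.2 CPM in WT and 23.2, 20.97 and 18.6 CPM in KO in RNA, with every KO library lower (-0.43, adjusted p = 0.999, SE 0.18). *Pdp1*, the phosphatase that opposes *Pdk4* on pyruvate dehydrogenase, was at 42.2, 36.4 and 43.1 CPM in WT and 53.4, 59.7 and 47.995 CPM in KO in footprints, with every KO library higher (0.40, adjusted p = 0.834, SE 0.17). Footprints against RNA in WT were called for 73 of these 83 genes, 47 higher and 26 lower, against 73.8% called, 38.3% higher and 35.6% lower over all genes, with a median of 0.77.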

How the data were processed

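Left ventricular tissue gave 12 libraries of ribosome footprints or RNA, 3 for each genotype and assay, grouped by the genotype and title in the labels. Lysate was digested with RNase I and small-RNA libraries were made from the footprints, and undigested lysate gave polyadenylated, strand-specific RNA libraries, per the labels' protocols. The authors deposited unnormalized read counts, 1 whole number for each transcript name. The tools cutadapt 1.18 and Bowtie2 2.4.2 are listed in the submitters' processing notes. Not given in the sources used here are the genome build, the region counted, whether strand was used and how reads matching several genes were treated. Of 21669 rows, 21428 matched transcript names of GENCODE M21 (GRCm38), which gave coordinates, lengths and start codon sequences and may not be the authors' version. Promoters came from RefSeq (GRCm38.p6). No columns of counts were left out.

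RNA and footprint libraries were each fitted with genotype, and all 12 with assay, genotype and their interaction, in edgeR 4.0.16 and limma 3.58.1 (R 4.3.3): filterByExpr with a minimum count of 10, TMM scaling, the quasi-likelihood F test and Benjamini-Hochberg adjustment over all genes, with a threshold of 0.05. SEs are absolute log2 fold changes over the square root of F. CPM used TMM-scaled totals within each assay, and a pseudocount of 0.5 was added for the plotted log2 values. Alternatives were median-of-ratios scaling, DESeq2 1.42.0, no filter, a minimum mean count of 50, removal of mitochondrially encoded genes, a replicate block, a factor for the side of the RNA libraries, centring of the log ratio, per-kb levels by coding length, the sum of *Acot1* and *Acot2*, and leaving out each replicate. Shared sequence was counted as identical windows of 28 bases, about a footprint's length. The fits were tested on simulated counts. Amplified copies cannot be recognised in count tables, so count-based precision covers counting error only.

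The 35 genes and the lists were chosen with earlier results of these data known. Genes given in every library were those with an unadjusted p below 0.05, with separate groups and a mean count of 50 or more, among the 5 densest in footprints, among the 4 highest or lowest ratios of footprints to RNA, or near-identical copies and control points. *Hadha* was added to these genes given in every library after its values were seen. Same-numbered WT and KO libraries come from different hearts, and their deviations from the group means correlated at -0.18, 0.33 and 0.39 in RNA and at 0.059, 0.030 and 0.0055 in footprints, so the numbers were not taken as pairs.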

Additional observations from a re-analysis of the deposited data

How the results depend on the processing

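In RNA, footprints and TE, 0 of the fatty acid genes were called in every alternative run, and their median log2 fold change stayed between -0.09 and 0.12 in RNA, 0.01 and 0.06 in footprints and -0.07 and 0.15 in TE. Counts over all genes moved more. No filter called 4 genes in RNA, 60 in footprints and 3 in TE, DESeq2 called 5 in footprints and 1 in TE, and the side factor called 6 in RNA. Leaving out a replicate gave 1 gene in RNA, 1 to 2 in footprints (2 without WT 2 or WT 3) and 0 in TE. Footprints against RNA were called for 9030 genes without a filter and 2954 with a mean of at least 50 counts in WT (5667 to 6183 without a replicate), and for 8846 and 2912 in KO (5373 to 6206). The median ratio of the fatty acid genes was 0.60 without a filter and 1.47 with that mean in WT (0.84 to 1.19 without a replicate), and 0.72 and 1.51 in KO (0.96 to 1.10). These filters test other numbers of genes and move the zero point. Of the fatty acid genes, 23 of 26 tested were called in each genotype with that mean (2954 and 2912 of 3889 genes in all), 27 in WT and 29 in KO of 35 without a filter (9030 and 8846 of 17026), and 27 to 29 in WT and 28 to 30 in KO of 34 otherwise. No filter turned the WT ratios of *Acaa2*, *Etfa* and *Etfdh* negative, and in RNA the mean of at least 50 counts changed the sign of *Acads*, *Cpt2*, *Echs1* and *Hadhb*. For *Acot1* in RNA the value was -0.13 without WT 2 and -0.15 without KO 2, the cause of which was not tested, and *Eci2* lost its call in WT (-0.15). Of 189 counts and medians 172 stayed near the main value, judged by fold for counts and by the spread between libraries for medians. That rule did not ask whether a median kept its sign. Of 364 single-gene values 361 kept their direction and, where an adjusted p was given, their side of the threshold. Depth limits most the RNA levels of *Acot2*, *Cpt1a*, *Pdk4*, *Ppara* and *Ehhadh*, which rest on 2 to 20 counts. The RNA of *Ucp3* is close to these, at 9 to 28 counts.

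With the replicate number as a block, 1 gene was called in RNA, 4 in footprints and 0 in TE, and 5943 and 5814 in footprints against RNA in WT and KO. Under the block 0 fatty acid genes were called in RNA, footprints and TE, and 28 and 29 in the ratios. Their medians were -0.00 in RNA, 0.04 in footprints, 0.05 in TE, and 1.01 and 1.07 in the ratios. The numbers did not pair WT with KO libraries (correlations in RNA -0.18 to 0.39). For RNA and footprint libraries of the same number the WT correlations ran from 0.077 to 0.15 and each of the 3 KO correlations was above 0.1 (0.11 to 0.12), while whether they share a heart is not given in the sources used here.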
